A study of Mus musculus with 4 samples.

Results

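Resident macrophages of mouse dorsal root ganglia were followed through 10 marker genes, Aif1, C1qa, C1qb, C1qc, Csf1r, Cx3cr1, Cd68, Mrc1, Cd163 and Tyrobp. Every probe set that the platform annotation assigns to 1 of these symbols was taken, which gave 15 of the 45101 probe sets on the array. All 10 genes and all 15 probe sets lay above the filter on low signal and were tested, among 27022 probe sets and 13543 named genes in all. Total RNA from freshly dissected ganglia had been hybridised to 4 Affymetrix arrays. 2 arrays held RNA of one level of ganglia, called the sample-2 level here, and 2 held RNA of the other, the sample-1 level. The labels used here give no name to the levels, no strain, genotype, age or treatment beyond the dissection, and do not say how many animals were pooled or whether each array had animals of its own. Replicate spread here is that of 2 arrays per level, part or all of which may be technical, and p-values measure no more than this.

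Dorsal root ganglia hold the cell bodies of sensory neurons, wrapped by satellite glia, together with Schwann cells, vessels, connective tissue and resident macrophages. These macrophages lie close to the neurons and around vessels, depend on signalling through the CSF1 receptor, and take up debris and damaged cells, above all after nerve injury. No member gene is made by macrophages alone. Neutrophils and monocytes express Tyrobp, and monocytes also express Csf1r and Cx3cr1. In RNA from a whole ganglion, fewer macrophages and less RNA per macrophage cannot be told apart.

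Values are intensities per probe set on a linear scale, in arbitrary units, and differences are those between levels on the scale of log2(intensity + 16). Array medians over all probe sets were 25.9 to 27.3, and the filter on low signal corresponded to an intensity of 14.3. Arrays of the sample-2 level correlated at r = 0.987 across the tested probe sets, those of the sample-1 level also at r = 0.987, and pairs from different levels at 0.982 to 0.986. The number of arrays limits the precision. Intensities are not compared between probe sets, because binding differs from probe to probe.

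The macrophage markers mostly measured lower at the sample-2 level, by a small amount that did not pass the test. Of the 10 genes, taken by the probe set with the highest mean, 9 lay below 0 and 1 above, against 51.2% below 0 among all genes taken the same way. The median difference was -0.34 for the members and -0.0058 over all genes. The summed intensity of these 10 probe sets was 976 and 990.2 on the sample-2 arrays, against 1206 and 1269.6 on the sample-1 arrays. Csf1r (1419872_at) contributed most to these sums. In the limma fit 0 of the 15 probe sets passed a Benjamini-Hochberg adjusted p of 0.05, and the smallest adjusted p was 0.137. Over all tested probe sets the share past that threshold was 0.622%, so that a count of 0 among 15 lies where the background would put it. At an unadjusted p under 0.05 there were 6 of the 15, each lower at the sample-2 level, where the share of all probe sets that were lower at that p was 5.53%.

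The 4 arrays did not overlap between levels for 11 of the 15 probe sets, against 41.2% of all tested probe sets. Of these, 10 were lower and 1 was higher at the sample-2 level, against backgrounds of 20.1% lower and 21.1% higher. Among the lower ones, Cx3cr1 1450019_at passed the filter on low signal only through its sample-1 arrays. The 15 probe sets come from only 10 genes and are read on the same 4 arrays, so they are not 15 separate observations. Without sample-1 array 2 the number at an unadjusted p under 0.05 was 2 of 15, and without sample-2 array 2 it was 3, in both cases lower at the sample-2 level.

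**Figure D1:**
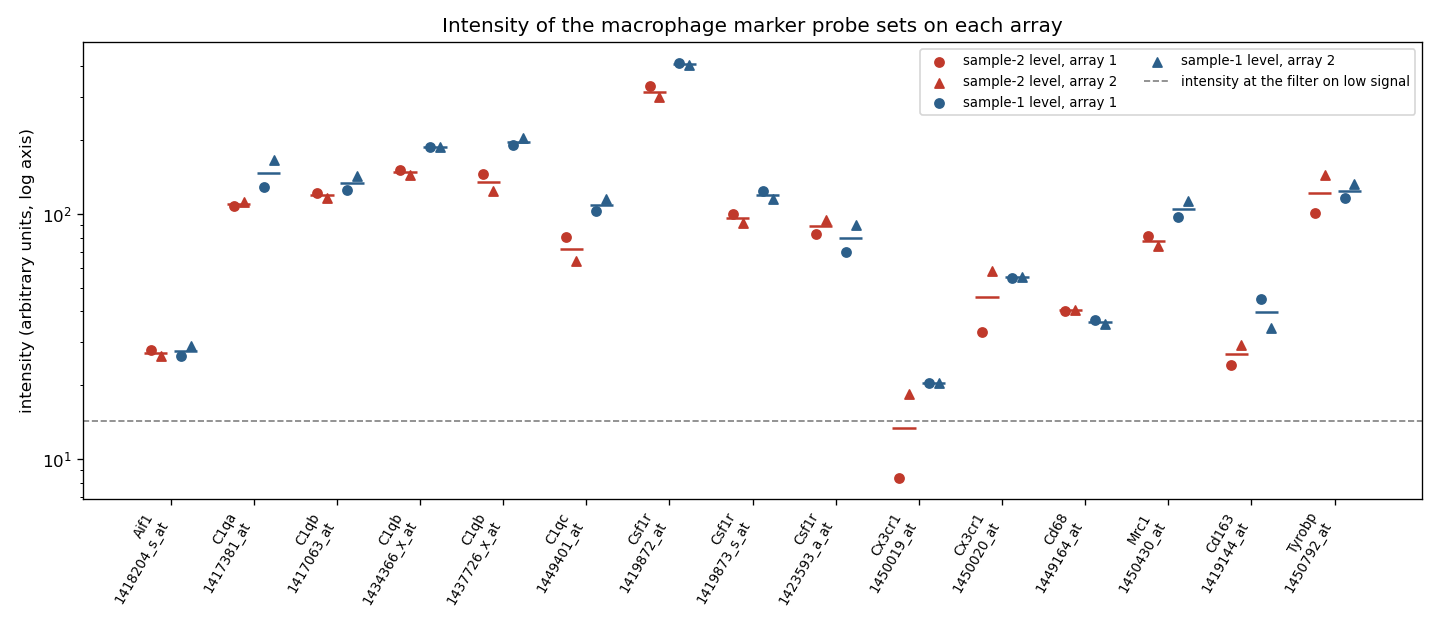
Intensity of each of the 15 probe sets on a log axis, with the sample-2 arrays (red) left of the sample-1 arrays (blue). Points are single arrays, short lines are the means of 2 arrays, and the dashed line is the intensity at the filter on low signal. For C1qa, C1qb, C1qc, Mrc1 and Cd163 both sample-2 arrays lie below both sample-1 arrays, while the arrays of Aif1 and Tyrobp overlap.

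C1qa, C1qb and C1qc encode the A, B and C chains of complement C1q, the recognition protein that starts the classical complement pathway. In many tissues macrophages and microglia are its main source. The 3 genes lie next to each other on chromosome 4 in the reference annotation (GRCm38.p6). C1qa measured 107 and 112 on the sample-2 arrays, against 129 and 165 on the sample-1 arrays. C1qc measured 80.1 and 64.3 at the sample-2 level, against 103 and 115 at the sample-1 level. For both genes each sample-2 array lay below each sample-1 array, and the sample-1 arrays of C1qa differed more from each other than its sample-2 arrays did.

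C1qb was read by 3 probe sets. The brightest, 1434366_x_at, measured 151 and 144 at the sample-2 level, against 187 and 187 at the sample-1 level. The other probe set whose suffix _x_at marks probes that may also bind other transcripts, 1437726_x_at, measured 145 and 124 at the sample-2 level, against 190.2 and 204 at the sample-1 level. The third, 1417063_at, carries no such suffix and measured 121 and 117 at the sample-2 level, against 125 and 143 at the sample-1 level. None of the 3 overlapped between levels, but the size of their differences was unequal.

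On the log2 scale C1qc differed by -0.50 ± 0.16 (SE, n = 2 arrays per level, limma adjusted p = 0.234, 95% interval -0.85 to -0.15). C1qa differed by -0.37 ± 0.15 (limma adjusted p = 0.377). The C1qb probe sets differed by -0.50 ± 0.13 (1437726_x_at, limma adjusted p = 0.137), -0.31 ± 0.12 (1434366_x_at, limma adjusted p = 0.375) and -0.15 ± 0.14 (1417063_at, limma adjusted p = 0.767). As means, C1qc was 33.5% lower and C1qa 25.6% lower at the sample-2 level. The C1qb means were 31.7%, 21.0% and 11.1% lower in the same order of probe sets. The interval of 1417063_at, from -0.45 to 0.15, includes both no difference and one as large as that of C1qa. Leaving out each array in turn, the difference of C1qa ranged from -0.53 to -0.21 and that of C1qc from -0.63 to -0.37. That of 1417063_at ranged from -0.23 to -0.06.

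The 250 bases before the annotated start were taken from RefSeq (GRCm38.p6) for C1qb and C1qc, neighbours that measured lower together, and for Mrc1, whose values by array were close to theirs. Each was searched on both strands for GAGGAA, the core letters bound by PU.1, the factor that macrophages need to form. Capitals mark a match, which reads TTCCTC where it lies on the other strand.
C1qb, chr4:136886201-136886450, minus strand: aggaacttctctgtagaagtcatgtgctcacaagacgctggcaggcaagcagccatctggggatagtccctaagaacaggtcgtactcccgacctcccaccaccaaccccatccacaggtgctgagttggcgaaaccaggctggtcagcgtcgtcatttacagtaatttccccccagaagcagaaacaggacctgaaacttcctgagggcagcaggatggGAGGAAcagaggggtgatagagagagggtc
C1qc, chr4:136892915-136893164, minus strand: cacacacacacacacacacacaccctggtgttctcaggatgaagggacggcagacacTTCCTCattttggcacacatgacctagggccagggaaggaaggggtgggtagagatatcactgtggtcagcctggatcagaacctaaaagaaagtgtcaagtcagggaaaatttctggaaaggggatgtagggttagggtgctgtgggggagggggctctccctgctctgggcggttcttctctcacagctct
Mrc1, chr2:14229164-14229413, plus strand: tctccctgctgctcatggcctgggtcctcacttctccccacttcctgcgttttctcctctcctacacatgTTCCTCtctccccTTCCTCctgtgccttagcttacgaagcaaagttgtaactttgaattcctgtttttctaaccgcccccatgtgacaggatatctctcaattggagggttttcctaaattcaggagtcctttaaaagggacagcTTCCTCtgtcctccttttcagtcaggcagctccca
The C1qb window held 1 match, which begins 30 bases before the start, and the C1qc window 1, which begins 193 bases before it. The Mrc1 window held 3, at 180, 167 and 35 bases. No 2 matches overlapped. Windows of 7 members were searched in all. Those of Aif1, C1qb, C1qc, Cd68 and Mrc1 held at least 1 match, while those of Cx3cr1 and Cd163 held no run of these letters. The same letters occurred in 23.3% of all 32851 windows of this length, so a match describes the letters and not a site in use. C1qa, Csf1r and Tyrobp had no entry. Spi1, the gene of PU.1, measured 42.9 and 39.5 at the sample-2 level, against 32.0 and 22.8 at the sample-1 level (0.41 ± 0.22, limma adjusted p = 0.539), and is named outside the rule for named genes, after its values were seen.

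Csf1r encodes the receptor for CSF1 and IL-34, through which macrophages survive and divide. Its brightest probe set, 1419872_at, measured 331 and 298 at the sample-2 level, against 411 and 404 at the sample-1 level. A second, 1419873_s_at, measured 100.3 and 91.7 at the sample-2 level, against 124 and 115 at the sample-1 level. The third, 1423593_a_at, measured 83.0 and 94.6 at the sample-2 level, against 69.9 and 90.2 at the sample-1 level. The first pair of probe sets separated the levels and the third did not, with sample-2 arrays that overlapped the sample-1 arrays and a mean 10.9% higher.

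The differences of the Csf1r probe sets were -0.36 ± 0.11 (1419872_at, limma adjusted p = 0.190), -0.28 ± 0.14 (1419873_s_at, limma adjusted p = 0.524) and 0.13 ± 0.17 (1423593_a_at, limma adjusted p = 0.838). Their 95% intervals ran from -0.59 to -0.13, from -0.59 to 0.04 and from -0.23 to 0.50. The platform annotation gives an accession, AK004947, for the third probe set and none for the others. The mRNA part that each one reads was not analysed here, and the difference between the probe sets was not tested. Without sample-1 array 1 the third probe set changed sign, to -0.021.

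Il34 and Csf1 encode the 2 ligands of this receptor. Il34 measured 92.2 and 85.6 at the sample-2 level, against 122 and 165 at the sample-1 level. No sample-2 array reached a sample-1 array, and the difference was -0.59 ± 0.16 (limma adjusted p = 0.152). Csf1, named after its values were seen, measured 107 and 100.04 at the sample-2 level, against 107 and 95.4 at the sample-1 level. Its arrays overlapped, with a difference of 0.03 and a 95% interval from -0.29 to 0.35 (limma adjusted p = 0.970). Among the 5 tested genes of ligands and growth factors for macrophage receptors 0 passed and 1, Il34, had an unadjusted p under 0.05. Their median difference was 0.03. With the filter at the 60th percentile it was -0.28, over 2 genes (Il34 and Csf1). It was -0.043 without sample-1 array 2 and -0.051 without sample-2 array 1.

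Cx3cr1 encodes the receptor for fractalkine, a chemokine displayed by neurons and endothelium, and marks microglia and many tissue macrophages. Its brighter probe set, 1450020_at, measured 33.0 and 58.7 at the sample-2 level, against 54.9 and 55.3 at the sample-1 level. The other, 1450019_at, measured 8.36 and 18.5 at the sample-2 level, against 20.4 and 20.4 at the sample-1 level. Both probe sets were low on sample-2 array 1 alone, where the dimmer one fell under the intensity of the filter, and sample-2 array 2 lay near the sample-1 arrays.

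The Cx3cr1 differences were -0.23 ± 0.22 (1450020_at, limma adjusted p = 0.769) and -0.33 ± 0.28 (1450019_at, limma adjusted p = 0.739). They rest on that 1 array. Without it they were 0.071 and -0.077, and the brighter probe set changed sign. Cx3cl1, the gene of fractalkine, measured 29.7 and 15.6 at the sample-2 level, against 20.04 and 39.0 at the sample-1 level, with overlapping arrays (limma adjusted p = 0.833).

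**Figure D2:**
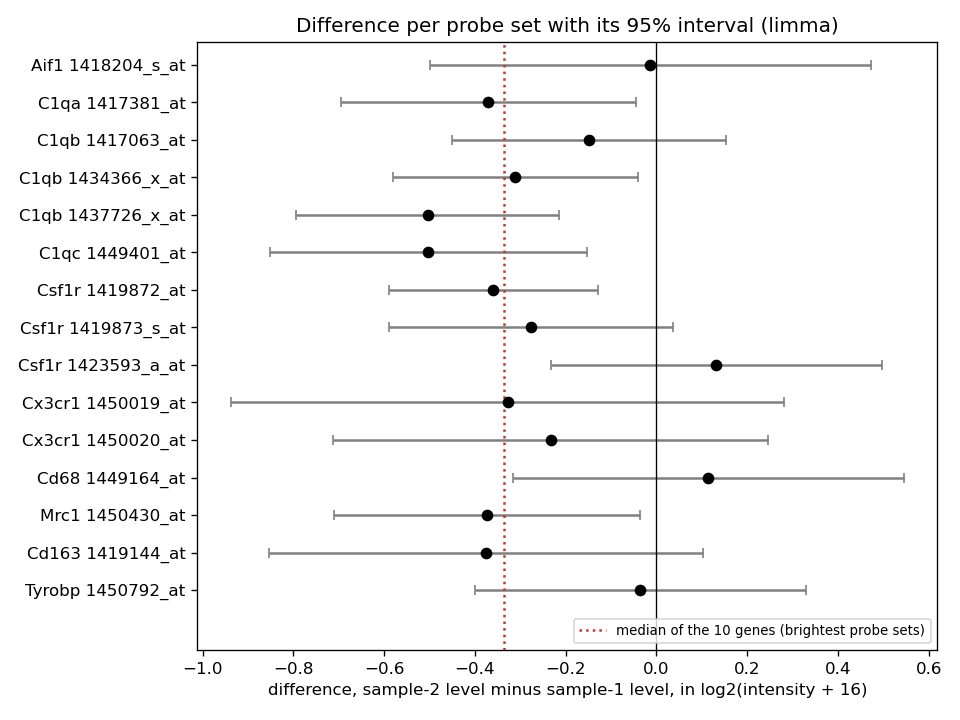
Difference between levels (sample-2 minus sample-1) in log2(intensity + 16) for each of the 15 probe sets, with 95% intervals from limma. 13 points lie below 0, and the dotted line marks the median of the 10 genes, -0.34.

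Mrc1 encodes the mannose receptor CD206, an endocytic receptor of perivascular and other tissue macrophages. It measured 80.8 and 73.6 at the sample-2 level, against 96.8 and 113 at the sample-1 level. The levels did not overlap, and the mean was 26.4% lower at the sample-2 level, a difference of -0.37 ± 0.15 (limma adjusted p = 0.398, 95% interval -0.71 to -0.04). Cd163 encodes the scavenger receptor for haptoglobin-haemoglobin complexes. It measured 24.2 and 29.2 at the sample-2 level, against 44.9 and 34.4 at the sample-1 level. The levels did not overlap here either, with a mean 32.5% lower and a difference of -0.38 ± 0.22 (limma adjusted p = 0.580). Its sample-1 arrays lay farther apart than its sample-2 arrays. Because Cd163 is dim, the pseudocount makes its fitted difference smaller than the ratio of its means.

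Mrc1 and Cd163 are shared with macrophages at vessels and tissue borders. Of 15 further genes of such cells on the array, 11 were tested and 0 passed, with 2 lower and 0 higher at an unadjusted p under 0.05, where 6.64% of all genes were lower at that p. The 2 lower genes were Cbr2 and Maf (-0.23 ± 0.10, limma adjusted p = 0.411), and Maf is named after its values were seen. The median difference of the list was -0.09. Cbr2, a carbonyl reductase, measured 11.4 and 29.6 at the sample-2 level, against 32.1 and 55.6 at the sample-1 level (-0.73 ± 0.29, limma adjusted p = 0.369). Ms4a7, a membrane protein of the MS4A family, measured 17.0 and 19.1 at the sample-2 level, against 42.0 and 22.9 at the sample-1 level (-0.48 ± 0.26, limma adjusted p = 0.547). Both were dim. The arrays of each level lay far apart for Cbr2, and sample-1 array 1 stood alone for Ms4a7.

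The remaining markers, Aif1, Cd68 and Tyrobp, had the differences nearest to 0 among the 10 genes. Aif1 encodes IBA1, the actin-binding protein stained to show macrophages and microglia. It measured 27.9 and 26.3 at the sample-2 level, against 26.3 and 28.8 at the sample-1 level. Its arrays overlapped, and the difference was -0.01 with a 95% interval from -0.50 to 0.47 (limma adjusted p = 0.991). An interval this wide includes the differences measured for the C1q genes.

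Cd68 encodes a glycoprotein of lysosomes. It measured 40.3 and 40.6 at the sample-2 level, against 36.9 and 35.5 at the sample-1 level. It was the 1 member gene, and the 1 probe set, with both sample-2 arrays above both sample-1 arrays, by a mean of 11.8% (0.11 ± 0.20, limma adjusted p = 0.892, 95% interval -0.32 to 0.54). Tyrobp encodes DAP12, the adaptor that passes on signals from receptors such as TREM2. It measured 101 and 143 at the sample-2 level, against 116 and 132 at the sample-1 level. The sample-2 arrays enclosed the sample-1 arrays, and the difference was -0.04 ± 0.17 (limma adjusted p = 0.968). Without sample-2 array 1 it was 0.19 and without sample-1 array 2 it was 0.051. The difference of Aif1 also changed sign, to 0.028 without sample-1 array 2 and to 0.012 without sample-2 array 2.

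Among 17 genes on the array listed for receptors of this adaptor and for signalling, 11 were tested. Apart from Cd300lb and Cd300ld they were other adaptors (Hcst and Fcer1g) and signalling proteins not particular to this adaptor. Fcer1g was also on the list of other macrophage genes. Of the 11 tested, 9 lay above 0 and 2 below, where 51.2% of all genes lay below. In that list 0 passed, 2 were higher at an unadjusted p under 0.05, where 5.75% of all genes were higher, and the median difference was 0.20. Btk, a kinase of B cells and myeloid cells, measured 38.5 and 30.1 at the sample-2 level, against 18.8 and 15.1 at the sample-1 level (0.61 ± 0.24, limma adjusted p = 0.362). Cd300lb, an activating receptor of myeloid cells, measured 31.7 and 24.5 at the sample-2 level, against 15.8 and 10.8 at the sample-1 level (0.59 ± 0.26, limma adjusted p = 0.429). Both separated the levels in the direction opposite to the C1q genes, but both were dim. The sample-1 mean of Cd300lb, 13.3, lay under the filter intensity of 14.3, so it passed the filter only through its sample-2 arrays. Trem2 itself had no probe set above the filter.

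Set on a common scale, with each gene's mean over the 4 arrays taken as 0, the median of the 10 genes was -0.13 on both sample-2 arrays, against 0.10 and 0.14 on the sample-1 arrays. The members did not move alike. The mean of C1qa, C1qb and C1qc was -0.15 and -0.24 on the sample-2 arrays, against 0.12 and 0.27 on the sample-1 arrays. The root mean square distance from this mean over the 4 arrays was 0.0202 for Mrc1 and 0.0674 for Csf1r, against 0.0695 to 0.0805 for the C1q genes themselves. It was 0.176 for Cd163 and 0.192 for Aif1, and 0.263 to 0.265 for Tyrobp, Cx3cr1 and Cd68. Among 11945 other named genes at or above the median signal, the closest were Gas6 at 0.0095, Tnfrsf12a at 0.0114, Cuedc1 at 0.0118, Nsg1 at 0.0175 and Ctdsp1 at 0.0212. With 4 arrays many genes can lie this close, and the distance is a description only.

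**Figure D3:**
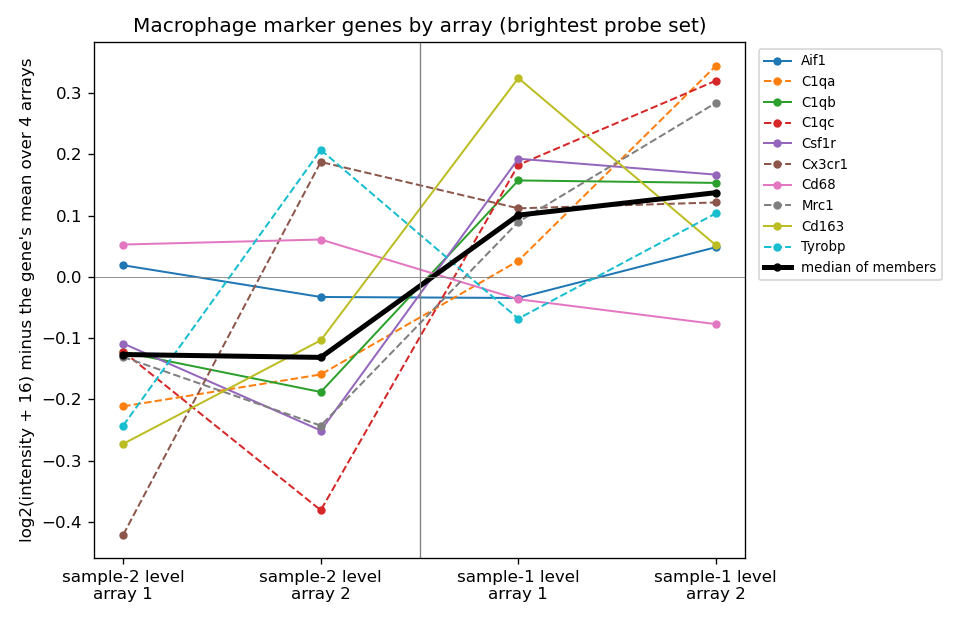
Values of the 10 genes on each array in log2(intensity + 16), minus the gene's mean over the 4 arrays, with the sample-2 arrays left of the sample-1 arrays. The thick line is the median of the genes, which lies at -0.13 on both sample-2 arrays and at 0.10 and 0.14 on the sample-1 arrays. Cx3cr1 and Tyrobp are lowest on sample-2 array 1, and Cd68 runs the other way.

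Other genes of macrophages and microglia lay more often above 0 than below it. Of 29 on the array 23 were tested, 15 of them above 0 and 8 below, with a median difference of 0.09. In this list 0 passed, and 4 were higher and 0 lower at an unadjusted p under 0.05, where 5.75% of all genes were higher at that p. Ptprc, the leukocyte antigen CD45, measured 126 and 134 at the sample-2 level, against 74.2 and 78.2 at the sample-1 level (0.66 ± 0.14, limma adjusted p = 0.0731). Itgb2, an integrin chain of leukocytes, measured 50.9 and 52.6 at the sample-2 level, against 28.2 and 27.7 at the sample-1 level (0.62 ± 0.20, limma adjusted p = 0.229). Ptprc and Itgb2 are made by all or most leukocytes. The other genes higher at an unadjusted p under 0.05 were Lyz2 and Fcgr1, named after their values were seen. Lyz2 measured 622 and 712 at the sample-2 level, against 462 and 531 at the sample-1 level (0.41 ± 0.11, limma adjusted p = 0.129). Fcgr1 measured 43.3 and 37.0 at the sample-2 level, against 22.1 and 23.9 at the sample-1 level (0.52 ± 0.22, limma adjusted p = 0.397). Adgre1, the macrophage antigen F4/80 and named after its values were seen, measured 71.7 and 71.2 at the sample-2 level, against 70.5 and 96.6 at the sample-1 level (-0.18 ± 0.17, limma adjusted p = 0.783). For P2ry12 (-0.23 ± 0.21) and Tmem119 (-0.30 ± 0.20), microglia genes also named after their values were seen, each sample-2 array lay below each sample-1 array. Both were dim and did not pass (limma adjusted p = 0.757 and 0.655). In this list 7 genes were higher and 4 lower without overlap, against 2783 and 3026 of all 13543 genes taken the same way. Apoe on this list is also a satellite glia marker. The summed intensity of the list, to which Apoe and Ly86 contributed most, was 14470.2 and 13607 on the sample-2 arrays, against 13515 and 14176 on the sample-1 arrays.

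C1q acts together with other complement proteins, and 17 genes of complement components and regulators were on the array. Of the 14 tested, 1 fell and 0 rose past the threshold, where the background over all genes was 0.857%, with 0.561% lower. The gene was C2, a serine protease that C1 cleaves in the classical pathway. C2 measured 69.4 and 79.8 at the sample-2 level, against 133 and 141 at the sample-1 level. The levels lay well apart, with a mean 45.5% lower at the sample-2 level and a difference of -0.76 ± 0.15 (limma adjusted p = 0.0463). The call was lost when any array was left out (adjusted p from 0.0825 to 0.179), with a pseudocount of 1 (0.0536), with arrays centred on their medians (0.0583), without the filter on low signal (0.328) and without the intensity trend (0.415). The C2 probe set has the suffix _x_at. The other 13 genes did not pass, and the median of the list was -0.08.

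Markers of other cells differed between the same arrays, and their part in the values of the macrophage markers was not tested. All 13 tested neutrophil markers lay above 0, and 6 rose and 0 fell, against 0.295% of all genes that rose. Their summed intensity was 6915 and 8668 on the sample-2 arrays, against 3450.03 and 4161 on the sample-1 arrays. S100a9, a calcium-binding protein of neutrophils and monocytes, measured 2052 and 2529 at the sample-2 level, against 951 and 1203 at the sample-1 level (1.08 ± 0.12, limma adjusted p = 0.00214). Of 10 monocyte markers 1 rose, Chil3, which neutrophil precursors also express, and 0 fell, with a median of -0.10 and a sum of 1959 and 1954 at the sample-2 level, against 2217 and 1965 at the sample-1 level. Of 8 dendritic cell markers 0 passed and 7 lay below 0, with a median of -0.19 and a sum of 1685 and 1751 at the sample-2 level, against 2013 and 2204 at the sample-1 level. Cd74, the invariant chain of MHC class II, which macrophages also make, measured 420.02 and 414 at the sample-2 level, against 550.2 and 574 at the sample-1 level (-0.42 ± 0.09, limma adjusted p = 0.0818). H2-Aa, a class II chain, measured 590.5 and 590.1 at the sample-2 level, against 719 and 782 at the sample-1 level (limma adjusted p = 0.151).

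Among all genes 0.561% fell past the threshold and 51.2% lay below 0. All 10 fibroblast and meningeal markers lay below 0 and 7 fell, with a median of -0.54 and a summed intensity of 9245 and 8826 at the sample-2 level, against 15761 and 14145 at the sample-1 level. Ptgds, a prostaglandin D synthase of the meninges, measured 2161 and 2244 at the sample-2 level, against 5427 and 4553 at the sample-1 level (-1.17 ± 0.08, limma adjusted p = 9.37e-05). All 8 tested Schwann cell markers lay below 0 and 1, Pmp2, fell, with a median of -0.50 and a sum of 18197 and 13990 at the sample-2 level, against 20633 and 18675 at the sample-1 level. All 9 satellite glia markers lay below 0 and 0 passed, with a median of -0.20 and a sum of 14024 and 12863 at the sample-2 level, against 14036 and 14287 at the sample-1 level. No marker in these lists was at 0 on any array. Since the deposited values share a common trimmed mean, every value is relative to the other RNA on its array.

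**Figure D4:**
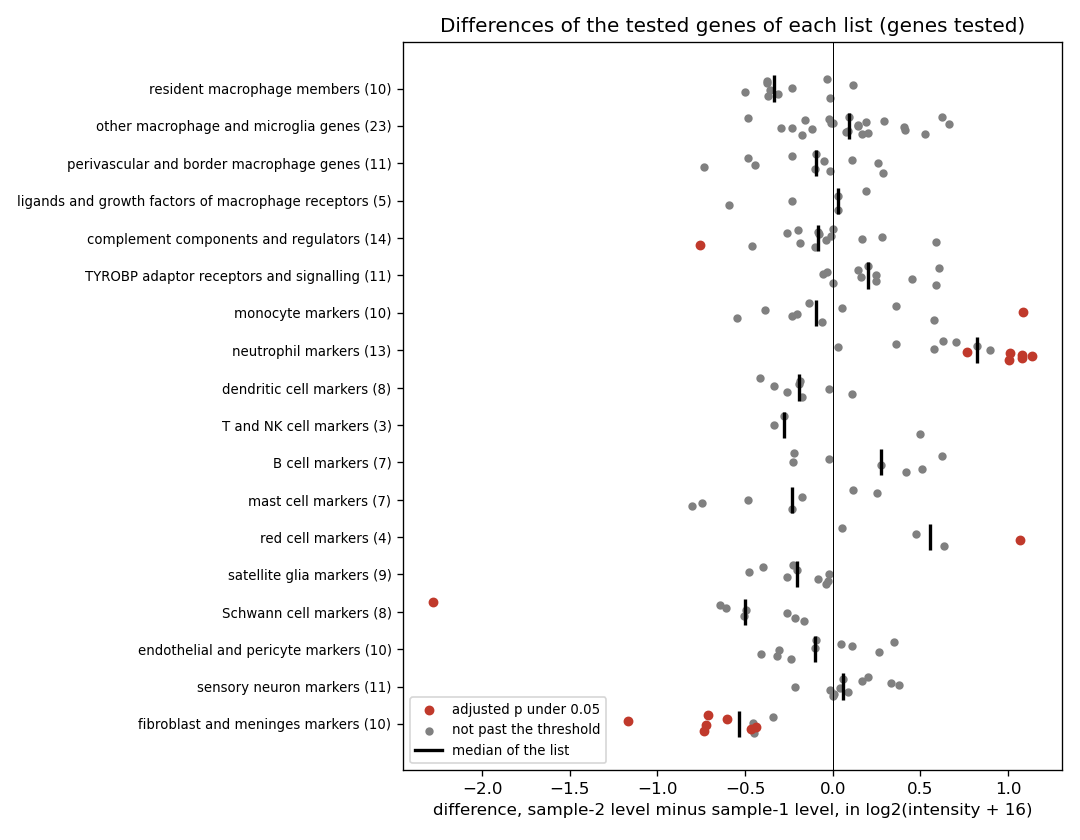
Difference between levels (sample-2 minus sample-1) in log2(intensity + 16) for the tested genes of each list, with the number tested in brackets. Red points passed an adjusted p of 0.05 in limma and black bars are medians. The resident macrophage genes have a median of -0.34 with 0 past the threshold, between the fibroblast list at -0.54 and the neutrophil list at 0.82.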

How the data were processed

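The authors deposited 1 table with the intensity of each probe set on 4 arrays, on a linear scale. The mean of every array after trimming 2% at each end was 150.001, which shows a scaling to 1 target before deposit. The software and scaling steps are not stated in the labels used here, and no batch, scan time or detection call was available for use.

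Intensities were taken as log2(intensity + 16). The 64 control probe sets and those with a mean under the 40th percentile were left out, which left 27022. The fit used lmFit and eBayes of limma 3.58.1 in R 4.3.3, with the variance trend on intensity, for sample-2 minus sample-1 level without covariates, and p-values were Benjamini-Hochberg adjusted over all 27022. The fit had 2 residual degrees of freedom plus 9.71 from the moderated variance. It was tested on simulated data. Counts of genes use, for each gene, the brightest of its tested probe sets.

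Gene names came from the platform annotation, where 34945 probe sets had 1 symbol, 932 several and 9160 none, and all 10 members matched RefSeq genes. The members and lists were chosen with earlier results of these data known. The rule named all members, per list up to 4 genes that passed, or 2 by size of difference where none did, and the 5 genes closest to the C1q mean. Of the neutrophil, fibroblast and glial lists only examples are named. Alternatives were pseudocounts of 1 and 64, no filter, a 60th percentile filter, quantile normalization, median centring, the array number as a block, no trend, other choices of probe set per gene, and leaving out each array.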

Additional observations from a re-analysis of the deposited data

How the results depend on the processing

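Of 175 differences of member probe sets recomputed under an alternative, 168 kept their direction and stayed above an adjusted p of 0.05, 1 passed it and 6 changed sign. The sign changes all came from leaving out 1 array, with ranges over the 4 arrays of -0.055 to 0.028 for Aif1, -0.26 to 0.19 for Tyrobp, -0.54 to 0.071 for Cx3cr1 (1450020_at) and -0.021 to 0.28 for Csf1r (1423593_a_at). Cx3cl1 ranged from -0.53 to 0.075. The median difference of the 10 genes was -0.36 with a pseudocount of 1, -0.22 with 64, -0.37 over the 6 genes above the 60th percentile, -0.30 with each gene's tested probe sets averaged and -0.30 without probe sets ending in _x_at or _s_at where a gene had others. It ranged from -0.32 to -0.25 with 1 array left out. The count of member genes past the threshold was 0 under every alternative run.

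With the array number as a replicate block, 1 member probe set passed, C1qb 1437726_x_at (-0.50, limma adjusted p = 0.0360), as did 793 of all probe sets, against 168 without it, and 34 listed genes other than members, against 17. The labels say nothing of what the number marks, and same-numbered arrays did not deviate together (r = 0.0263 across probe sets).

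All tested probe sets past the threshold numbered 4 without the filter on low signal, 104 with median centring, 1 without the trend and 102 to 241 with 1 array left out. The listed genes other than members numbered 0 without the filter, 0 without the trend and 11 to 19 with 1 array left out. Causes were not tested. With 2 arrays per level, intervals of dim genes such as Aif1 and Cx3cr1 are wide.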

Other observations

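Lists of further cell types were measured on the same arrays. Of 7 tested B cell markers 0 passed, with a median difference of 0.28, and Jchain, the joining chain of secreted antibodies, measured 44.6 and 60.7 at the sample-2 level, against 24.5 and 32.6 at the sample-1 level (limma adjusted p = 0.284). Of 7 mast cell markers 0 passed, with a median of -0.23, and Mcpt4, a mast cell protease, measured 6.08 and 16.1 at the sample-2 level, against 24.7 and 37.1 at the sample-1 level (limma adjusted p = 0.293). The sample-2 mean of Mcpt4, 11.1, lay under the filter intensity, so it was tested only because of its sample-1 arrays. The same held for Tpsb2, another of these mast cell markers, with a sample-2 mean of 9.36 and a sample-1 mean of 25.5. Only 3 of 9 T and NK cell markers on the array lay above the filter and 0 passed, with a median of -0.28, against 0.18 over all 9 without the filter. Of 4 red cell markers, with a median of 0.56, 1 rose, where 0.295% of all genes rose. It was Slc4a1 (1.07 ± 0.20, limma adjusted p = 0.0363). Its adjusted p ranged from 0.0074 to 0.173 with each array left out. Of 10 endothelial and pericyte markers 0 passed, with a median of -0.10, and of 11 sensory neuron markers 0 passed, with a median of 0.06. With the filter at the 60th percentile only 1 B cell gene (Ighm, -0.024) and 1 mast cell gene (Kit, 0.25) were left. The endothelial and pericyte median was then 0.046, over 5 genes. The signs of the B cell, mast cell, T and NK cell, and endothelial and pericyte lists therefore depend on which dim genes are kept. Without sample-1 array 1 the median was 0.51 for the T and NK cell list, over 1 gene, and 0.055 for the endothelial and pericyte list, which was 0.038 without sample-2 array 2. Without sample-2 array 1 that of the sensory neuron list was -0.0065.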
